A study of Homo sapiens with 6 samples.

Results

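The SOX genes examined here encode transcription factors that bind DNA through a shared high-mobility-group domain and bend it. They were chosen by name: of 8 listed genes, 7 had a row of their own among the 26906 rows of the deposited table, namely SOX2, SOX4, SOX5, SOX6, SOX9, SOX12 and SOX13. SOX11 had no row of its own and appeared only in a row joined with the noncoding gene AC010729.1, which is described separately below as the joined SOX11 row. RNA came from BE-(2)-C cells, a clonal human neuroblastoma line with amplified MYCN, collected 48 hours after exposure to a control siRNA (3 libraries) or to an siRNA against ELF4 (3 libraries). No other genotype, agent or time point was part of the comparison, and whether 1 or several siRNA sequences were used is not given in the sources used here. ELF4, an ETS-family transcription factor, is linked by the series title to miR-124, proliferation and the undifferentiated state, so the comparison asks how SOX factors of progenitor, neuronal and glial programmes stood after its knockdown.

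As background, SOX proteins fall into groups by the similarity of their DNA-binding domain. SOX2, of group B, holds neural progenitors in an undifferentiated state, and group C (SOX4, SOX11 and SOX12) acts in neuronal precursors, including those of the sympathetic nervous system from which neuroblastoma arises. Group D (SOX5, SOX6 and SOX13) lacks a transactivation domain and works by pairing with other factors, while group E (SOX8, SOX9 and SOX10) acts in the neural crest, glia and cartilage, and SOX9 is a known target of miR-124 in neural stem cells.

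The libraries held 23148635 to 38097986 recovered reads each. ELF4 stood at 42.4, 38.8 and 46.8 normalised counts in the control libraries and at 5.51, 5.61 and 3.10 in the ELF4 siRNA libraries, 11.1% of the control mean, lower in all 3 libraries so labelled. Of 14 adrenergic neuroblastoma markers 14 were detected above the filter. Their summed level was 255200 to 272100 in the controls and 292500 to 315100 after ELF4 siRNA. CHGA alone averaged 71160 in the controls and 104400 after ELF4 siRNA. Of the 14 markers 5 rose and 4 fell, so the sum does not stand for all of them. The myelin gene MBP averaged 1.86 normalised counts in the controls, and SOX10, which marks Schwann cells, averaged 2.01. Over all genes, 4217 of 20339 rose and 4956 fell (limma on log2(value + 1), adjusted p threshold 0.05), and under upper-quartile scaling the same test gave 5479 and 3938.

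The promoter windows of SOX genes that rose (SOX6 and SOX12) and that fell (SOX5 and SOX2) are shown because ELF4 belongs to the ETS family, whose members bind the core GGAA. SOX9, which also fell, and SOX11 had no window in the promoter set used. Each window shown runs from 250 bases before to 50 bases after a transcription start in RefSeq (GRCh38.p14). Capitals mark GGAA on either strand (TTCC on the strand printed). The windows lie at chr11:16738428-16738727 on the minus strand for SOX6, chr20:325302-325601 on the plus strand for SOX12, chr12:24562442-24562741 on the minus strand for SOX5 and chr3:181711675-181711974 on the plus strand for SOX2.
SOX6: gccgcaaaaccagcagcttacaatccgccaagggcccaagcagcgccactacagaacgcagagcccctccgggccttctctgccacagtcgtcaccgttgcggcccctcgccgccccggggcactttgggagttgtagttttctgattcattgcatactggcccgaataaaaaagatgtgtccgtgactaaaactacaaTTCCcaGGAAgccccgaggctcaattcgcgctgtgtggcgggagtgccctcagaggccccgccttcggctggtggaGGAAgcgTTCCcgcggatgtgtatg
SOX12: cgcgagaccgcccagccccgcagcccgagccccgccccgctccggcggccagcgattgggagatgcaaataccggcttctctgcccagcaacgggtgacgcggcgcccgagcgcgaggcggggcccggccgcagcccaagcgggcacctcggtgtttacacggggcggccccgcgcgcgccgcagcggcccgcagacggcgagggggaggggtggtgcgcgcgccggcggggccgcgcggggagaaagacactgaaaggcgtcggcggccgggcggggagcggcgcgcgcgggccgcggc
SOX5: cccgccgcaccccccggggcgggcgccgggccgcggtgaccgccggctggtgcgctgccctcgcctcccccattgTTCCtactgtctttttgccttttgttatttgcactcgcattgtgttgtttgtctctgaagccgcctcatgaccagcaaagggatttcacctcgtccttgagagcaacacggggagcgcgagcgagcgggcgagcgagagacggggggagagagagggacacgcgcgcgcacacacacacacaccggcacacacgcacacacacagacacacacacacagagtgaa
SOX2: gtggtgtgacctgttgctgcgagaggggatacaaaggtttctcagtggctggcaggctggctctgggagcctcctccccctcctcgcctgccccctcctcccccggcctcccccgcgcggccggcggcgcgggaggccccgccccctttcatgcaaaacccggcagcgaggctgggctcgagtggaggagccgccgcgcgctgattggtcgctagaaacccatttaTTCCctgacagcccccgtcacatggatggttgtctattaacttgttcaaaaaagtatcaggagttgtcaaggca

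The core occurred 4 times in the SOX6 window, 0 times in SOX12, once in SOX5 and once in SOX2. In windows not printed it occurred 7 times for SOX4, 5 times for SOX13 and 2 to 6 times for other SOX6 starts. Of all 35116 promoter windows, 95.5% held it at least once. Of the 10 windows listed for SOX members (5 of them for different starts of SOX6), 9 held GGAA and 0 held the longer ETS sequence CCGGAA or its reverse complement TTCCGG, which 17.2% of all windows held. The SOX-type sequence ACAAAG, searched on both strands, was found in 2 of the 10 windows, those of SOX2 and of 1 SOX6 start (16.1% of all windows). AACAAT was found in 4 of the 10, that of SOX5 and others of SOX6 (10.1% of all windows), and the printed SOX6 window held neither. The share of G and C was 60.0% in the printed SOX6 window, 80.3% in SOX12, 63.7% in SOX5 and 63.3% in SOX2. These are matches of letters and not measurements of binding.

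After ELF4 siRNA, SOX6 and SOX12 rose, SOX5, SOX9 and SOX2 fell, and SOX4 and SOX13 did not pass the test. Thus 2 of 7 members rose and 3 fell, where 20.7% of all tested genes rose and 24.4% fell, together 45.1%. Values of the groups did not overlap for 5 of the 7 members, where this held for 53.6% of tested genes. The median log2 fold change of the 7 members was -0.26, beside -0.0042 for all tested genes. All 7 passed the filter on low values, but 4 of them had means under 100 normalised counts in both groups. In such bulk RNA, fewer cells that express a gene and less RNA per cell cannot be told apart.

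**Figure D1:**
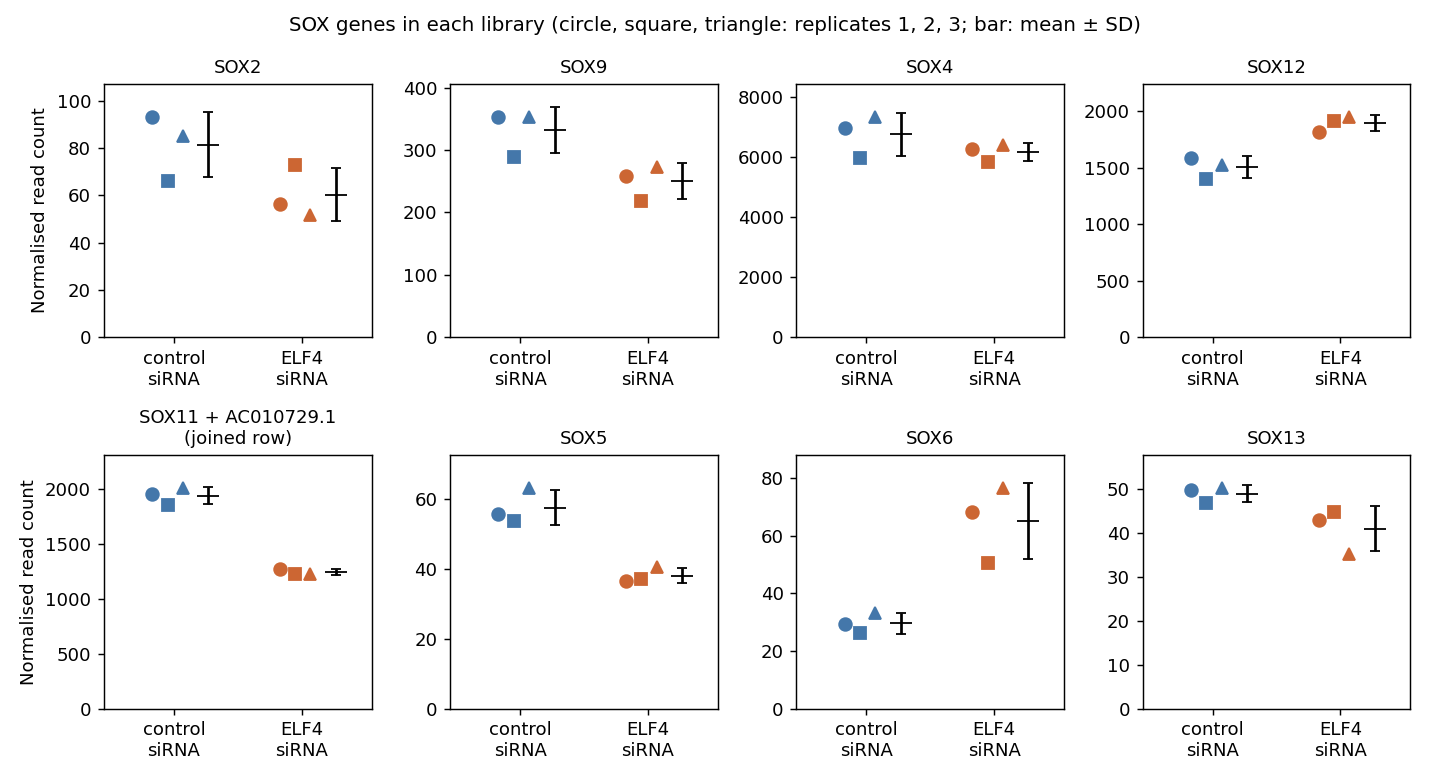
Normalised read count (y axis, linear from 0) of each SOX gene in each of the 3 control siRNA and 3 ELF4 siRNA libraries, with the mean and SD beside the points. SOX6 and SOX12 are higher in all ELF4 siRNA libraries than in all controls, SOX5, SOX9 and the joined SOX11 row are lower, and the points of SOX2 and SOX4 overlap.

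Per kilobase of the longest protein-coding GENCODE 29 transcript, the 7 genes spanned a wide range of levels. In the controls SOX4 was the most abundant at 1153 ± 122 normalised counts per kb (SD, n = 3), or 71.2% of the 7-gene sum. SOX12 followed at 325 ± 20.2, SOX9 at 84.3 ± 9.40, SOX2 at 32.4 ± 5.51, SOX13 at 13.7 ± 0.53, SOX5 at 8.24 ± 0.709 and SOX6 at 3.34 ± 0.398. No 2 neighbours in this order overlapped in the control libraries. After ELF4 siRNA the order held down to SOX13, but SOX6 (5.70 to 8.64 per kb) now overlapped SOX5 (5.21 to 5.79 per kb). SOX12 made up 20.1% of the sum in the controls and 26.0% after ELF4 siRNA. The sum leaves out the joined SOX11 row, whose level lay between those of SOX12 and SOX9. Per kb of SOX11 transcript that row stood at 222 ± 9.22 in the controls and 142 ± 3.25 after ELF4 siRNA. The isoforms in use were not measured, so these levels depend on the transcript chosen, above all for SOX5 and SOX6, which have many.

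**Figure D2:**
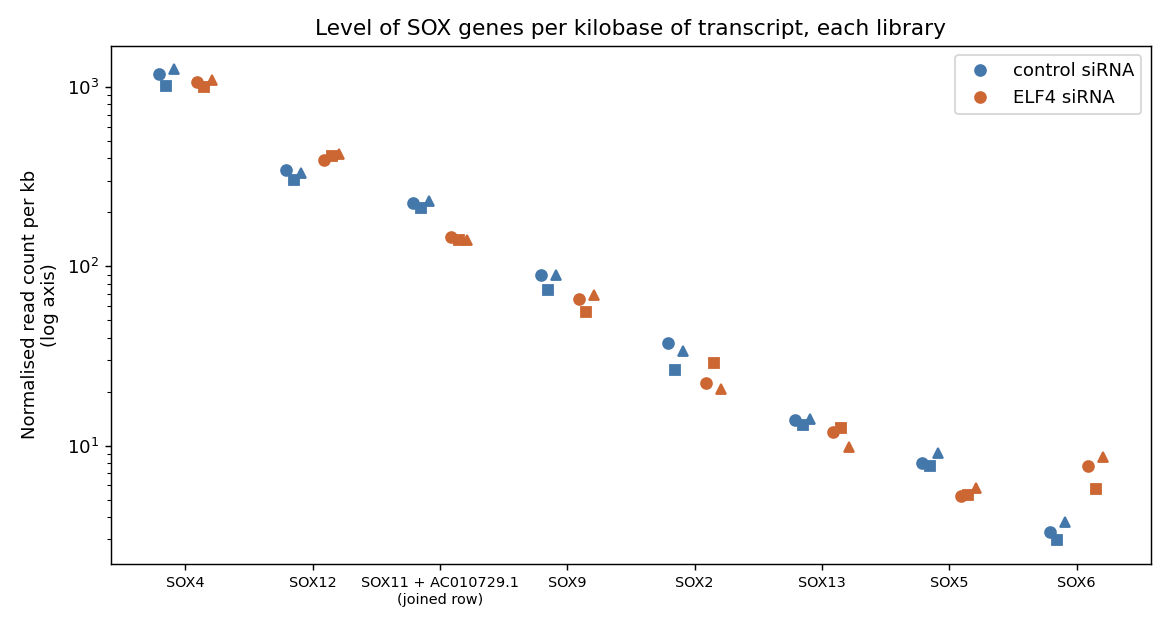
Normalised read count per kilobase of transcript (y axis, logarithmic) for each SOX gene in each library, ordered by the control mean. SOX4 lies at 998 to 1254 per kb in all 6 libraries, and SOX5 and SOX6 are the lowest and overlap only in the ELF4 siRNA libraries.

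SOX2, the group B factor of neural progenitors, was present at a low level and was lower after ELF4 siRNA. Its normalised counts were 93.3, 66.3 and 85.0 in control replicates 1 to 3, against 56.2, 73.0 and 51.7 after ELF4 siRNA (replicates 1 to 3). The groups overlapped, since the ELF4 siRNA replicate 2 value lay above that of control replicate 2. The means were 81.5 ± 13.9 and 60.3 ± 11.2 (SD, n = 3), and the log2 fold change was -0.43 ± 0.16 (SE; limma adjusted p = 0.0396). The values rest on 50 to 120 reads per library. The call was lost without control replicate 1 (limma adjusted p = 0.168), control replicate 3 (0.105), ELF4 siRNA replicate 1 (0.110) or ELF4 siRNA replicate 3 (0.145), and also with DESeq2 (0.108), without the trend (0.104) and with upper-quartile scaling (0.0689). SOX2-OT, a noncoding transcript that spans SOX2, was below the filter, at 4.29 ± 1.21 in the controls and 2.89 ± 0.61 after ELF4 siRNA. The intermediate filament gene NES, whose enhancer SOX2 is known to bind, went from 3747 ± 153 to 2541 ± 118 (log2 fold change -0.56, limma adjusted p = 4.70e-07). Of 7 listed SOX2 targets 2 were tested: NES fell, and EGFR, the epidermal growth factor receptor gene, had a log2 fold change of 0.03 (adjusted p = 0.484 in limma). NR2E1 was below the filter, and FGF4, UTF1, HES5 and SHH had no row.

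Within group C, SOX12 rose and the joined SOX11 row fell, while SOX4 did not pass the test. SOX4, the most abundant SOX gene, had 6950, 5956 and 7337 normalised counts in the controls against 6250, 5842 and 6405 after ELF4 siRNA, in replicate order. The groups overlapped because control replicate 2 lay below 2 of the ELF4 siRNA libraries. The means were 6748 ± 712 and 6166 ± 291, a log2 fold change of -0.13 with a 95% interval of -0.26 to 0.01 (limma adjusted p = 0.127). Without control replicate 2 the log2 fold change was -0.21 and passed (limma adjusted p = 0.00164), whereas it was -0.0624 without control replicate 3 (0.466) and -0.0607 under upper-quartile scaling (0.425). CASC15, a noncoding gene next to SOX4, rose from 793 ± 54.6 to 1326 ± 119 (log2 fold change 0.74, limma adjusted p = 1.17e-06).

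SOX12, a weaker activator of the same group, stood at 1590, 1405 and 1526 normalised counts in the controls and at 1820, 1918 and 1953 after ELF4 siRNA. All ELF4 siRNA values lay above all controls. The mean rose 1.26-fold, from 1507 ± 93.7 to 1897 ± 69.1, a log2 change of 0.33 ± 0.053 (SE; limma adjusted p = 0.000155). The call held in 16 of 16 alternatives, with log2 fold changes of 0.28 to 0.40.

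The joined SOX11 row went the other way, but its reads cannot be divided between SOX11 and AC010729.1. It held 1957, 1851 and 2008 normalised counts in the controls and 1273, 1228 and 1221 after ELF4 siRNA, with no overlap. Its mean of 1939 ± 80.4 became 1241 ± 28.4, which is -0.64 ± 0.048 on the log2 scale (SE; limma adjusted p = 1.42e-07). Within a library the log2 ratio of SOX12 to the joined SOX11 row went from -0.36 ± 0.056 (SD, n = 3) to 0.61 ± 0.086. In counts not scaled by length, SOX12 was the lower of the pair in every control library and the higher in every ELF4 siRNA library. Per kb of transcript, with the SOX11 length for the joined row, SOX12 was the higher in both groups. The controls held 303.5 to 343.3 per kb for SOX12 against 212.2 to 230.3 for the joined row. After ELF4 siRNA these were 393.0 to 421.8 against 140.1 to 146.1. The log2 ratio of SOX4 to SOX12 changed by -0.46 and that of SOX4 to the joined row by 0.52. For each of these 3 ratios the groups did not overlap, and an exact permutation test, two-sided, gave p = 0.1, the smallest that 3 against 3 libraries allow (0.12 after adjustment over 6 pairs).

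Genes that SOX4 and SOX11 are known to activate in neurons or to act on also moved in both directions. This list, like all lists here, was written with earlier results of these data known. Of 5 tested targets 2 rose and 3 fell, where 20.7% of all tested genes rose and 24.4% fell. The median log2 change of the targets was -0.33, and NEUROD1 had no row. TEAD2, a Hippo pathway factor, fell from 263 ± 21.2 to 104 ± 10.3 (log2 fold change -1.34, limma adjusted p = 1.34e-07), and TUBB3, the neuronal beta-tubulin, fell from 12320 ± 376 to 6904 ± 313 (-0.84, adjusted p = 5.10e-09 in limma). EZH2, the Polycomb methyltransferase, also fell (-0.33, limma adjusted p = 1.29e-05). DCX, the microtubule protein of young neurons, rose (1.43, limma adjusted p = 5.89e-11). MAP2, a dendritic microtubule protein outside the rule for named genes, completes the list and rose (0.26, limma adjusted p = 0.000111).

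Group D split, with opposite changes of SOX5 and SOX6. SOX6, which pairs with SOX5 in cartilage and sets cell fate in neurons and muscle, had the largest change of the 7 members. Its normalised counts were 29.2, 26.3 and 33.3 in control replicates 1 to 3, against 68.3, 50.5 and 76.6 after ELF4 siRNA (replicates 1 to 3). Every ELF4 siRNA library lay above every control, and ELF4 siRNA replicate 2 was the lowest of its group. The mean rose 2.20-fold, from 29.6 ± 3.53 to 65.1 ± 13.3, a log2 change of 1.10 ± 0.17 (SE; limma adjusted p = 0.000150). It rests on 23 to 47 reads per control library and on 45 to 74 per ELF4 siRNA library, and it passed in 15 of 15 alternatives that tested it.

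SOX5 stood at 55.6, 53.7 and 63.0 normalised counts in the controls and at 36.4, 37.0 and 40.4 after ELF4 siRNA. The groups did not overlap. The mean fell to 66.0% of control, from 57.4 ± 4.95 to 37.9 ± 2.15, or by -0.58 ± 0.14 on the log2 scale (SE; limma adjusted p = 0.00354). DESeq2 on the recovered reads gave a log2 fold change of -0.60 that did not pass (DESeq2 adjusted p = 0.0504).

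SOX13, the third member of the group, had 49.9, 46.8 and 50.3 normalised counts in the controls and 43.0, 44.9 and 35.2 after ELF4 siRNA. All 3 ELF4 siRNA values lay below all controls, but the log2 fold change of -0.26 had a 95% interval of -0.58 to 0.06 and did not pass (limma adjusted p = 0.174). Within a library, the log2 ratio of SOX5 to SOX6 went from 0.94 ± 0.058 to -0.75 ± 0.27, a change of -1.68, so that SOX5 exceeded SOX6 in counts in all 3 controls and SOX6 exceeded SOX5 in all 3 ELF4 siRNA libraries (exact permutation p = 0.1, two-sided, 0.12 adjusted over 6 pairs). The ratio of SOX6 to SOX13 changed by 1.36 with no overlap and the same p in that exact test. The ratio of SOX5 to SOX13 changed by -0.33 with overlapping groups (exact permutation p = 0.2).

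**Figure D3:**
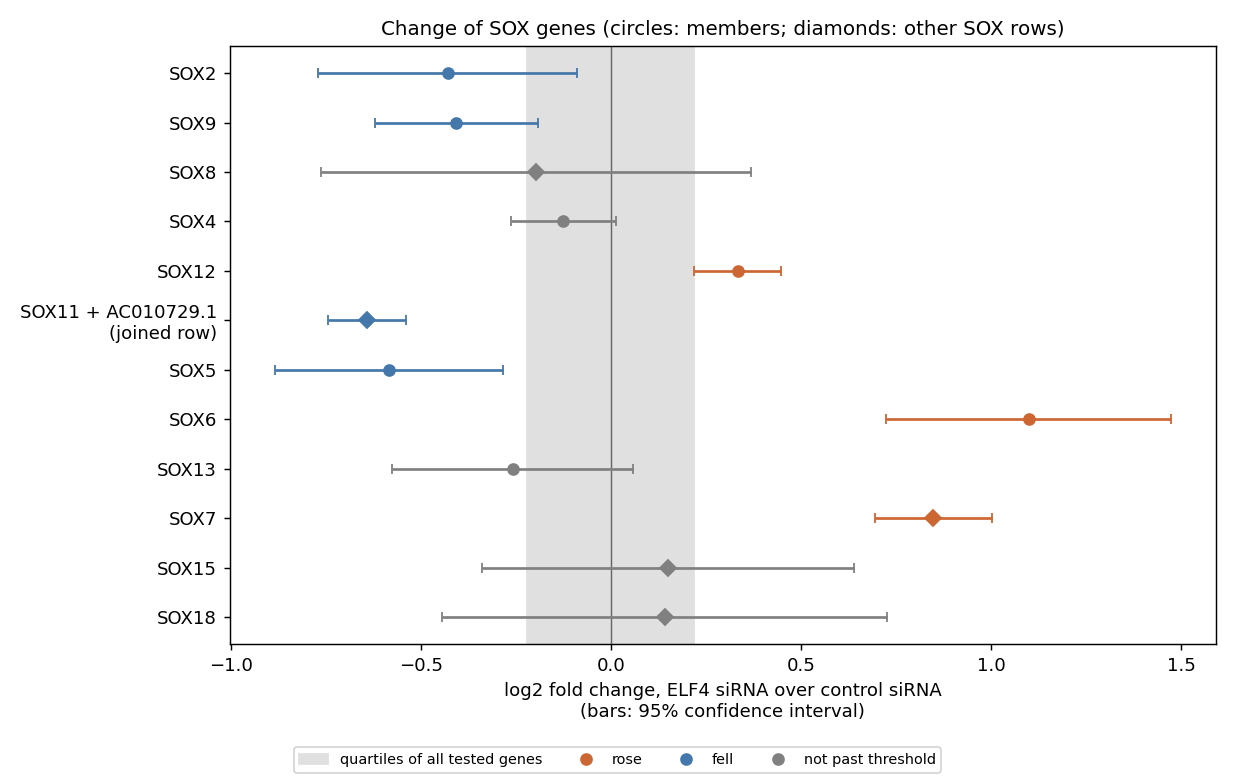
Log2 ratio of ELF4 siRNA to control siRNA (x axis) with its 95% confidence interval for each tested SOX row, against the quartiles of all tested genes (-0.22 to 0.22, grey band). SOX6 lies farthest to the right at 1.10, SOX5 and SOX6 lie on opposite sides of 0, and SOX12 lies opposite to the joined SOX11 row.

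SOX9, the group E factor of neural crest, glia and cartilage, fell. It had 353.3, 289.0 and 352.8 normalised counts in control replicates 1 to 3, against 258.9, 217.8 and 273.2 after ELF4 siRNA (replicates 1 to 3). All ELF4 siRNA values lay below all controls, with replicate 2 the lowest in each group. The mean fell to 75.4% of control, from 332 ± 37.0 to 250.0 ± 28.8, or by -0.41 ± 0.099 on the log2 scale (SE; limma adjusted p = 0.00404), and the call held in 16 of 16 alternatives.

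Most listed targets of SOX9, SOX5 and SOX6, which are cartilage genes and the glial targets NFIA, APCDD1 and MMD2, were not tested. Of 15 listed targets 4 had no row, 6 were below the filter and 5 were tested. Of these 2 fell and 1 rose, where 24.4% of all tested genes fell and 20.7% rose. COL9A3, a chain of collagen IX, fell from 167 ± 6.46 to 75.7 ± 11.7 (log2 fold change -1.15, limma adjusted p = 3.05e-06), and COL9A2, another chain, fell from 94.2 ± 9.80 to 63.7 ± 9.73 (-0.56, limma adjusted p = 0.00359). NFIA, a glial factor that acts with SOX9, rose from 739 ± 48.7 to 835 ± 20.8 (0.18, limma adjusted p = 0.0243). The NFIA call was lost without control replicate 2 (limma adjusted p = 0.0863), ELF4 siRNA replicate 1 (0.0804) or ELF4 siRNA replicate 3 (0.0568), which left 0 targets that rose.

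The other group E genes were low. SOX8 had 23.8 ± 6.11 normalised counts in the controls and 21.1 ± 7.83 after ELF4 siRNA (limma adjusted p = 0.579), and SOX10 rested on 1 to 9 reads per library, below the filter. Of 13 Schwann and glial markers, 3 had no row, 3 were below the filter, 3 rose and 3 fell. Among all tested genes 20.7% rose and 24.4% fell. PMP22, a myelin protein, rose (log2 fold change 1.26) as did S100B (0.51) and the neurotrophin receptor gene NGFR (0.48), while ERBB3, the neuregulin receptor, fell (-1.37), with limma adjusted p of 3.46e-09, 0.00323, 0.00357 and 8.06e-05. All Schwann and glial markers with a row summed to 845 to 873 in the controls and 1459 to 1536 after ELF4 siRNA. PMP22 was the largest part of this sum. For blood, endothelial and fibroblast markers the sum was 1894 to 1947 in the controls and 2964 to 3371 after ELF4 siRNA. Of 6 tested 5 rose and 1 fell, beside the same shares of all tested genes. The fibroblast genes COL3A1 (log2 fold change 1.75), DCN (0.83), COL1A1 (0.48) and LUM (0.31) rose, and of the blood genes PTPRC rose (1.06) and CD14 fell (-1.24), PTPRC and COL1A1 being named after their values were seen. CDH5 was below the filter, and CD3E and PECAM1 had no row. Whether these markers had a part in the SOX changes was not tested.

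Of the 11 other SOX genes on the list, 6 had no row (SOX1, SOX3, SOX14, SOX17, SOX21 and SOX30), SOX10 was below the filter, and 4 were tested. SOX7, of group F, rose from 477 ± 29 to 860 ± 77.1 (log2 fold change 0.85, limma adjusted p = 4.78e-07). A separate row that joins SOX7 with PINX1 fell (-0.24, limma adjusted p = 0.0213), so the level of SOX7 is uncertain. The call of the joined row was lost without control replicate 1 (limma adjusted p = 0.0941), control replicate 2 (0.0502) or ELF4 siRNA replicate 3 (0.0758), with upper-quartile scaling (0.0823) and with DESeq2 (0.107). SOX15 (0.15) and SOX18 (0.14) did not pass (limma adjusted p = 0.630 and 0.708).

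Partners and cofactors of SOX proteins moved in both directions. Of 20 listed, 2 had no row and 1 was below the filter. Of 17 tested 4 rose and 7 fell, where 20.7% of all tested genes rose and 24.4% fell. The median log2 change was -0.03. Under upper-quartile scaling the split was 6 that rose and 4 that fell. HDAC1, a histone deacetylase, fell from 1935 ± 72.2 to 1540 ± 54.8 (log2 fold change -0.33, limma adjusted p = 6.82e-05). POU2F1, a POU-domain factor of the family that pairs with SOX2, fell (-0.27, limma adjusted p = 0.000408). CTNNB1, beta-catenin, rose (0.18, limma adjusted p = 0.00115). The largest fall was that of POU3F1, another POU-domain gene, from 21.2 ± 5.48 to 12.7 ± 3.12 (-0.69, limma adjusted p = 0.0436), named after its value was seen. Its call was lost without control replicate 1 (limma adjusted p = 0.0938), control replicate 3 (0.198), ELF4 siRNA replicate 2 (0.0614) or ELF4 siRNA replicate 3 (0.153), and with DESeq2 (0.173), no filter (0.0520), no trend (0.0686) and upper-quartile scaling (0.0593). PAX6 and POU3F4 had no row and POU3F3 was below the filter.

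**Figure D4:**
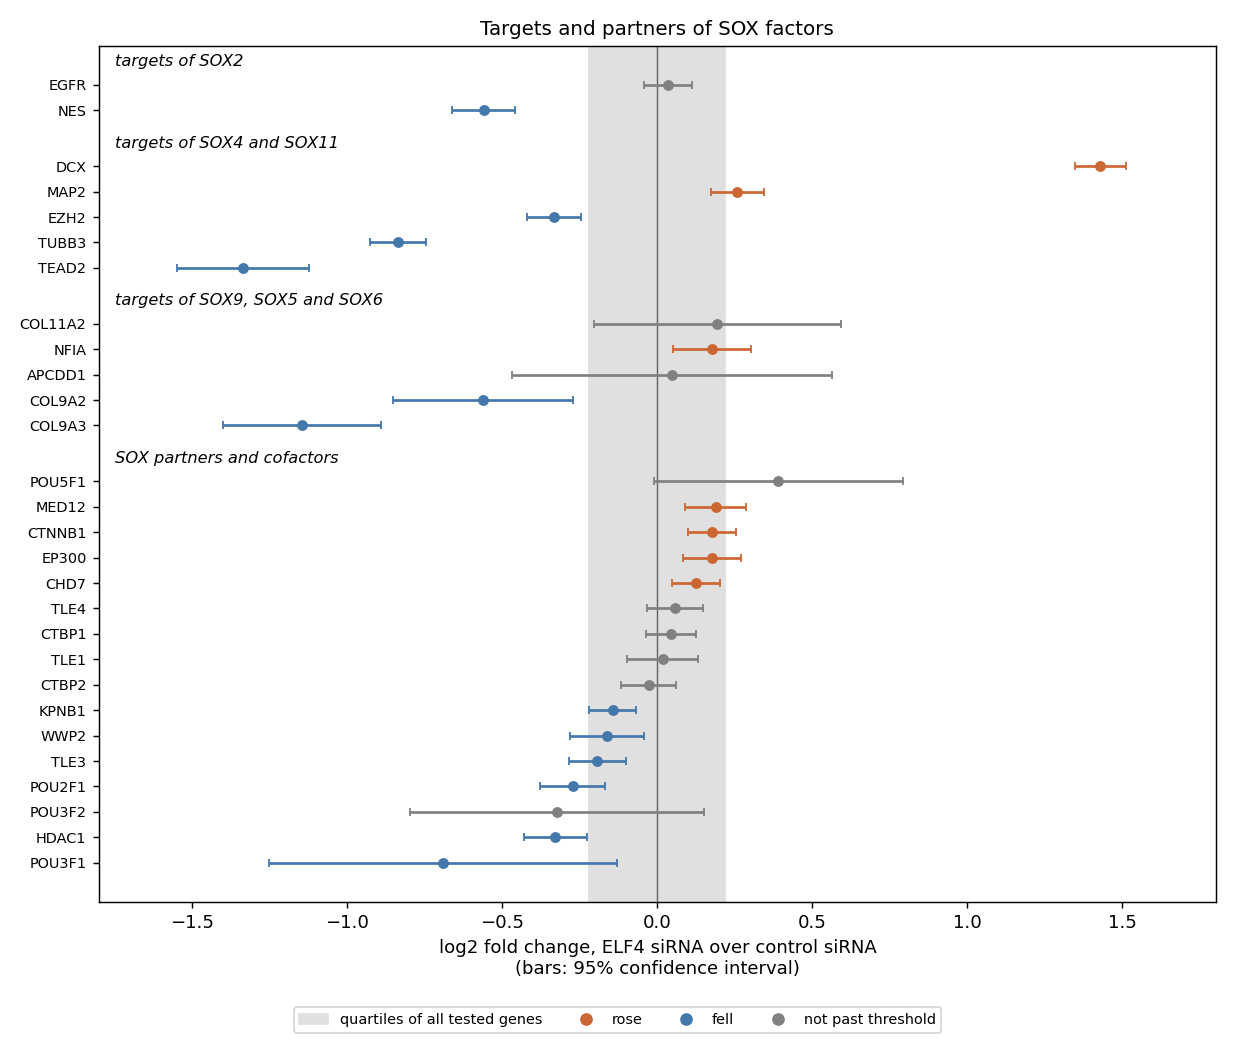
Log2 ratio of ELF4 siRNA to control siRNA (x axis) with its 95% confidence interval for the tested targets and 16 of the 17 tested partners of SOX factors, with the quartiles of all tested genes in grey. DCX (1.43) and TEAD2 (-1.34), both on the list of SOX4 and SOX11 targets, are the extremes, and the partners lie between -0.69 and 0.39.

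The adrenergic markers beside which these SOX changes stand also moved in both directions, with 5 of 14 higher and 4 lower. The shares of all tested genes were 20.7% higher and 24.4% lower. The granins CHGA (log2 fold change 0.55) and CHGB (0.50), the sympathetic factor HAND2 (0.44) and the decarboxylase DDC (0.14) rose, with limma adjusted p of 3.75e-07, 4.24e-07, 1.00e-06 and 0.00446. MYCN (-0.14), DBH (-0.17), ISL1 (-0.16) and TBX2 (-0.14), named after their values were seen, fell, with limma adjusted p of 0.0189, 0.00810, 0.0141 and 0.00987. These 4 falls became 0 under upper-quartile scaling and 0 without the trend, and 2 without control replicate 1 or without control replicate 3.

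SOX9 and SOX12 were the only called members with a mean of at least 100, while SOX6 and SOX5 changed more but were below it. Likeness was the root mean square difference of centred log2 values over the 6 libraries. The genes most like SOX9 and SOX12 were sought among 13055 other genes. For SOX9 they were TRNT1 (difference 0.0084), SDCBP (0.032) and GOLGA6L9 (0.039), the last of a family of near-identical copies and so uncertain. For SOX12 they were TTC17 (0.013), a joined row of SHB and RP11-613M10.9 (0.019) and MTIF3 (0.021). Their log2 fold changes were -0.42 to -0.38 for the genes like SOX9 and 0.33 for those like SOX12. This closeness follows from the choice, because the measure of likeness includes the difference between the groups.

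The 3′ UTRs of the members were searched for the 7-base sequences ACCTGTC and CCTGTCA, which an earlier search of these same data had picked because genes that hold them were lower after ELF4 siRNA. In GENCODE 29 the longest transcripts of SOX4, SOX12 and SOX13 held 1 match each, shown with 10 bases on either side and the match in capitals.
SOX4: aagttcactgCCTGTCAgattgttgat
SOX12: accggcccttCCTGTCAcccaggtcca
SOX13: gcatctaccgACCTGTCtccctggggt

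SOX2, SOX5, SOX6, SOX9 and SOX11 held 0 matches. The 3 members that fell had none, and neither did SOX11, while AC010729.1 of the joined row was not searched. Of the 3 carriers SOX12 rose, while SOX4 and SOX13 did not pass. Because the sequences were picked from these same data, this is a description, and a role of the sequences was not tested. Of 12516 tested genes with an annotated 3′ UTR, 20.1% held either sequence, and SOX6 lacked them in a 3′ UTR of 6360 bases where the median length was 1361 bases. A match is a description of letters and not of a site in use.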

How the data were processed

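The deposited signal is a normalised read count per gene: each value was a whole multiple of 1 read's worth in its library within 0.001 (100% of values), so the authors divided counts by a size factor per library. The submitters' processing notes name hg19, DESeq2, featureCounts and TopHat; the strand setting, annotation and versions are not stated there. The 20339 genes that reached 10 in 3 or more libraries entered limma on log2(value + 1) with a trend, Benjamini-Hochberg adjusted over all of them at 0.05, and this understates changes of low genes. Intervals are 95%. The labels name triplicates but no separate cultures, so the spread behind the p-values may be technical. Libraries of a group differed beyond sampling noise (chi-square per degree of freedom 2.05 to 5.78).

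The members and lists were chosen with earlier results of these data known. Named were the members, ELF4, up to 4 called genes per list with the smallest adjusted p, and the 3 genes nearest to SOX9 and SOX12; some named genes are not reported here. Alternatives were pseudocounts of 0.5 and 5, filters, scalings, no trend, edgeR and DESeq2 on recovered reads, a replicate block and leaving out each library. The test was tested on simulated data. Sequences are from RefSeq (GRCh38.p14) and GENCODE 29, matched by symbol; 6 of 8 members had a promoter window, and no hg19 coordinates are given. Software: DESeq2 1.42.0, edgeR 4.0.16 and limma 3.58.1 in R 4.3.3, and matplotlib 3.10.9, pandas 2.3.3, scipy 1.17.1 and numpy 2.4.6 in Python 3.11.15.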

Additional observations from a re-analysis of the deposited data

How the results depend on the processing

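No value of a member reversed direction. SOX6, SOX9, SOX12 and the joined SOX11 row passed in all alternatives that tested them. The SOX2 log2 fold change no longer passed with upper-quartile scaling (-0.37), without the trend (-0.43) and with DESeq2 (-0.44), nor did SOX5 with DESeq2 (-0.60). SOX4 passed with the replicate block (-0.13, limma adjusted p = 0.0112). The cause was not tested. Leaving out 1 library gave log2 fold changes of -0.57 to -0.33 for SOX2, -0.21 to -0.0624 for SOX4, -0.63 to -0.52 for SOX5, 0.97 to 1.27 for SOX6, -0.50 to -0.31 for SOX9, 0.28 to 0.37 for SOX12 and -0.33 to -0.15 for SOX13. With a mean of at least 100, only SOX4, SOX9 and SOX12 of the members were tested. Of these 1 rose and 1 fell, where 3353 of 13056 genes rose and 4424 fell. The other members were not tested there, so their calls were not lost. Under DESeq2 1 member fell, where 4048 of 20339 genes fell. The mean filter left 1 target of SOX9, SOX5 and SOX6 that fell, and 0 Schwann and 0 blood or fibroblast markers that fell. The listed genes whose falls are missing there had means under 100 and were not tested. DESeq2 left 1 Schwann marker that fell. Upper-quartile scaling gave 4 partners that fell, 1 SOX2 target that rose and 0 adrenergic markers that fell. Without the trend, 0 adrenergic markers fell and 0 targets of SOX9, SOX5 and SOX6 rose. Leaving out 1 library gave 2 to 5 adrenergic markers that fell and 0 to 1 targets of SOX9, SOX5 and SOX6 that rose. Same-numbered libraries shared little (correlations of deviations 0.029, 0.075 and 0.041), so the numbers were not taken as pairs, although each of the 6 libraries correlated best with its own number, a hint from the data and not the design. Under the replicate block, 4564 rose and 5346 fell. Depth limits SOX6, SOX5 and SOX13, with 23 to 89 reads per library.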

Other observations

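All 7 SOX members with a row of their own had their lowest control value in control replicate 2, where 41.6% of tested genes had theirs. This pattern was noticed after the values were seen, and the direction of each member's change was the same without that library.

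A row that joins SOX18 with ZNF512B fell from 138 ± 19.5 to 104 ± 7.85 (log2 fold change -0.39, limma adjusted p = 0.0118), while the own row of SOX18 was 17.7 ± 6.46 and 18.7 ± 1.93, so the level of SOX18 is uncertain. The call of the joined row was lost without control replicate 3 (-0.28, limma adjusted p = 0.0801) or ELF4 siRNA replicate 1 (-0.33, 0.0516).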
